A study of Mus musculus with 8 samples.

Results

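The DNA copy number of 6 genes of the p53, p21 and Rb cell-cycle pathways was followed through 8 mouse liver tumors: Trp53, its regulator Mdm2, its target Cdkn1a (p21), the dual inhibitor locus Cdkn2a, the cyclin gene Ccnd1 and the retinoblastoma gene Rb1. Each gene was represented by the array probes within 0.5 Mb on either side of a given position. These borders used no measured value, but the genes were chosen with earlier results of these data known. The 6 windows held 473 of the 170183 probes on the autosomes and X.

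p53 is a transcription factor that stops the cell cycle or triggers cell death after DNA damage, in part by switching on p21, an inhibitor of cyclin-dependent kinases. Rb holds back E2F-driven entry into DNA replication until cyclin D and its kinases phosphorylate it. The Cdkn2a locus touches both arms, since one of its products inhibits the cyclin D kinases and the other, Arf, restrains Mdm2, the ubiquitin ligase that degrades p53.

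Tumor DNA from the livers of 8 male FAH-/- mice, 1 tumor from each animal, was labelled with Cy5. Every array compared it with the same Cy3-labelled reference, liver DNA pooled from 6 male FAH+/+ littermates. Tyrosine breakdown ends with the enzyme made by Fah, and mice without it are kept alive by NTBC (nitisinone), which blocks the pathway upstream. These mice had received 2.5% of the usual NTBC dose (7.5 mg/L in the drinking water) for between 6 and 12 months. Their strain and their exact ages are not given in the sources used here, nor is the share of non-tumor cells in the tissue. There was no array of non-tumor FAH-/- liver among the data used here, and no second array of any tumor. The dyes were not swapped, so a dye bias at a probe does not cancel.

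Values are log2 ratios of tumor over pool, with 0 set on each array at the commonest level of its autosomal segments. With pure tumor cells and 2 copies in the pool, loss of 1 copy would read -1 and gain of 1 copy 0.58. A level of at least 0.2 in size was called a gain or a loss. The arrays shared a strong probe-to-probe pattern, with correlations of 0.90 to 0.96 between tumors 1 to 6. Tumors 7 and 8 stood apart, with correlations of 0.71 to 0.83 to the other arrays, less noise between neighbouring probes (0.39 against 0.62 to 0.66) and a weaker pattern (0.57 and 0.60 times the common one, against 1.03 to 1.08). All values are therefore given on 2 scales, one with this pattern kept and one with it subtracted. On the second scale the noise was 0.12 to 0.21, but a short change present in most tumors is subtracted with the pattern. Errors beside a single tumor's level are standard errors over the probes of a window, which share 1 array and are not replicates. A gap between tumors set beside these errors is a description and not a test of a difference. The number of arrays limits the precision over tumors.

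Of the 6 loci, Rb1 changed most often. It was lost in 4 tumors and gained in 1, on both scales. Cdkn2a showed the deepest loss, in tumor 1, Cdkn1a was gained in 1 tumor, and Ccnd1 was lost in 2 tumors. Trp53 reached the threshold in 1 tumor and on 1 scale only. Of the 48 pairs of a locus and a tumor, 2 were gained with the pattern kept, where 6.38% of all 1 Mb windows of the genome passed the same threshold upward over the 8 tumors. Losses were called in 10 pairs, where 17.6% of the windows passed it downward. With the pattern removed 2 pairs were gained, beside 4.41% of windows, and 9 were lost, beside 14.9% of windows. The 6 loci were thus gained in 4.17% of pairs and lost in 20.8% or 18.8%, near the shares of the genome at large. Without tumors 7 and 8, 2 pairs were gained and 6 lost (pattern kept). The calls also depend on where 0 is set. With 0 at the array median (pattern kept) 4 pairs were gained and 4 lost: Cdkn1a and Rb1 were gained in tumor 5 and Ccnd1 in tumors 1 and 6, Cdkn2a was lost in tumor 1 and Rb1 in tumors 4, 6 and 8. With 0 at the density peak of single probes 30 pairs were gained and 0 lost. The windows of the genome moved too: of 2531, limma over the tumors called 843 higher and 76 lower with 0 at the array median. With 0 at the density peak it called 2351 higher and 1 lower. The share of windows past 0.2 is not given for these settings or without tumors 7 and 8, so their counts are not a result about the loci.

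**Figure D1:**
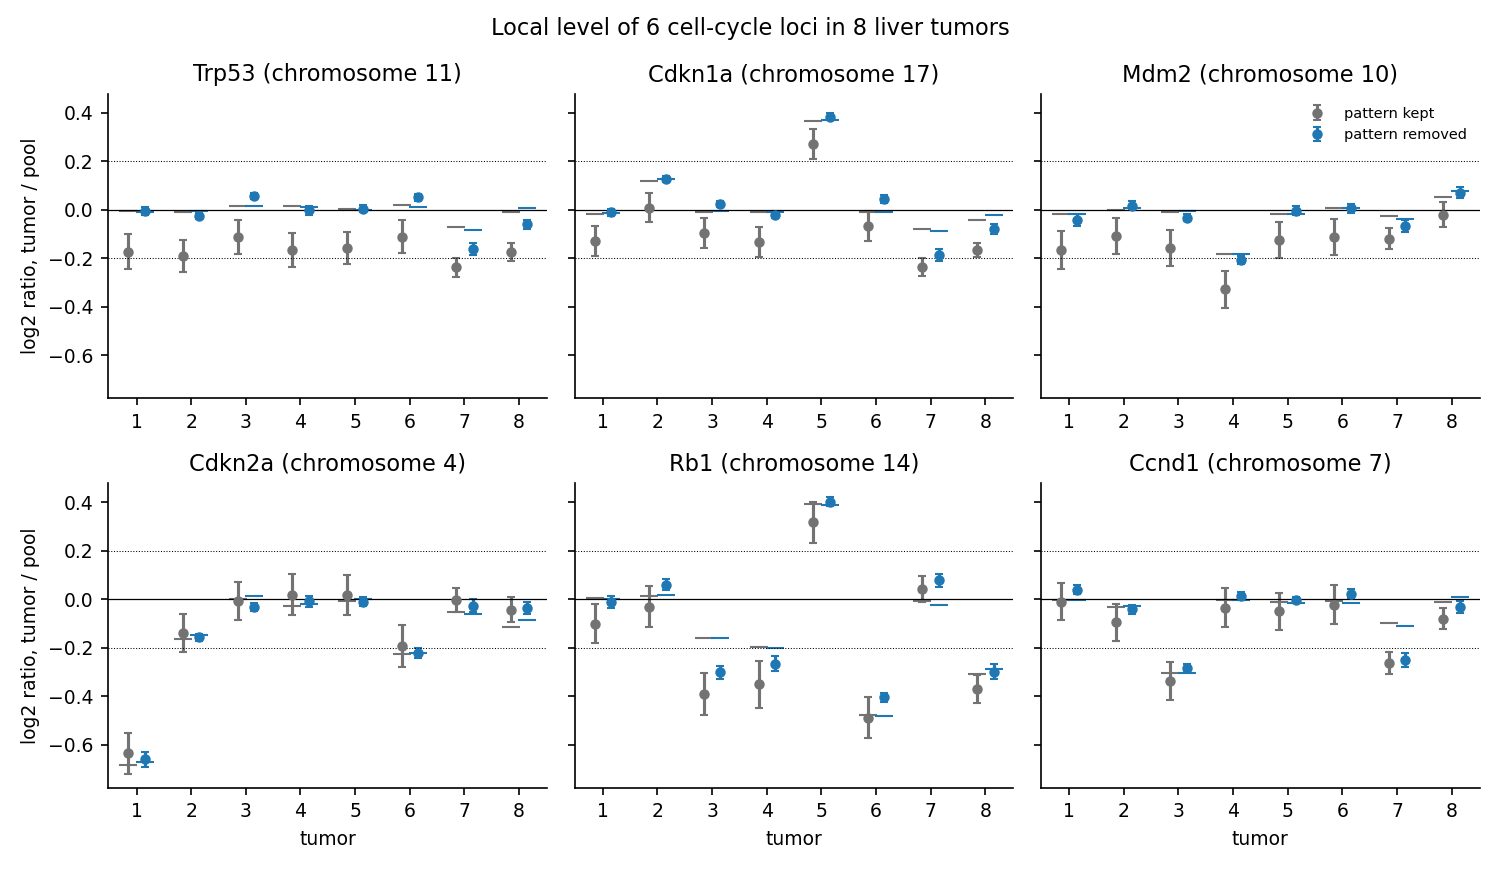
Mean log2 ratio of tumor over pool in the 1 Mb around each locus (vertical axis) in tumors 1 to 8 (horizontal axis), grey with the shared pattern kept and blue with it removed. Bars are standard errors over probes, short horizontal marks are the mean of the whole chromosome, and dotted lines are the call threshold of 0.2. The Rb1 panel has 4 tumors below -0.2 and tumor 5 above 0.2, whereas Trp53 stays near 0 in all but tumor 7 once the pattern is removed.

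Trp53 (gene ID 22059) was placed at 69.4 Mb of chromosome 11 on mm9, with 96 probes in its window. Its level in tumors 1 to 8 was -0.0048, -0.025, 0.057, -0.0034, 0.0033, 0.050, -0.16 and -0.061 with the pattern removed. Tumor 7 was the lowest, by a gap larger than the standard errors over probes (0.012 to 0.025), which are not a replicate error. The levels with the pattern kept were -0.17, -0.19, -0.11, -0.17, -0.16, -0.11, -0.24 and -0.18, so that tumor 7 alone passed the threshold. All 8 values were then below 0, although the mean of chromosome 11 lay between -0.072 and 0.019 in the same tumors. In tumor 7 the segment over Trp53 was 9.96 Mb long with a mean of -0.12 (pattern kept), and 9.43 Mb long with a mean of -0.11 (pattern removed). That array was cut into 483 and 1050 segments on these scales, against 42 to 268 and 179 to 488 in the other tumors. No segment over Trp53 reached 0.2 in size in any tumor on either scale.

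Mdm2 (gene ID 17246), at 117.14 Mb of chromosome 10 with 66 probes, read -0.043, 0.017, -0.032, -0.21, -0.0043, 0.0059, -0.066 and 0.070 in tumors 1 to 8 with the pattern removed. Tumor 4 was lower than all others, and just past the threshold. The whole of chromosome 10 was lowered in that tumor, at a mean of -0.18 on both scales, and the segment over Mdm2 ran over the last 51.8 Mb of the chromosome at a mean of -0.19 (pattern removed). On the scale with the pattern kept Mdm2 read -0.17, -0.11, -0.16, -0.33, -0.12, -0.11, -0.12 and -0.02, again lowest in tumor 4 and below 0 in all 8. No tumor showed a gain of Mdm2, and the highest value was 0.07 ± 0.02 in tumor 8. The 10 probes within 50 kb of the position read -0.56 to -0.21 with the pattern kept and -0.14 to 0.05 with it removed, so most of the low reading beside this gene was common to the arrays.

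Cdkn1a (gene ID 12575), at 29.23 Mb of chromosome 17, had 107 probes. Its levels with the pattern removed were -0.012, 0.13, 0.024, -0.021, 0.38, 0.045, -0.19 and -0.08. Tumor 5 was highest, tumor 2 second and tumor 7 lowest. The gaps of these 3 to the rest were larger than the standard errors over probes (0.012 to 0.026), which are not a replicate error. In tumor 5 all of chromosome 17 was raised, with a mean of 0.37 and 99.97% of its length called gained. In tumor 2 the mean of chromosome 17 was 0.13 with the pattern removed, below the threshold. In tumor 7 chromosome 17 had a mean of -0.09 and was cut into 53 segments, and the locus lay in one of 2.43 Mb at -0.23. Its levels with the pattern kept were -0.13, 0.0086, -0.09, -0.13, 0.27, -0.07, -0.24 and -0.17, so that the loss in tumor 7 was called on that scale only.

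Cdkn2a (gene ID 12578), at 88.93 Mb of chromosome 4 with 61 probes, was lost most deeply of all 48 pairs. It read -0.66 ± 0.03 in tumor 1, -0.22 ± 0.02 in tumor 6 and -0.16 ± 0.01 in tumor 2 (SE over probes, not a replicate error; pattern removed). The 5 other tumors lay between -0.035 and -0.0081, with standard errors over probes of 0.016 to 0.027. With the pattern kept the levels in tumors 1 to 8 were -0.63, -0.14, -0.0076, 0.019, 0.017, -0.19, -0.0016 and -0.04, and tumor 6 fell just short of the threshold. The change followed the chromosome in each case. Chromosome 4 had a mean of -0.67 in tumor 1, with all of its length called lost, of -0.22 in tumor 6, with 87.7% lost, and of -0.15 in tumor 2 (pattern removed). Cdkn2b, which encodes a related inhibitor and is the neighbour of Cdkn2a in the reference annotation, shares this chromosome.

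Ccnd1 (gene ID 12443), the gene of cyclin D1, lies close to the end of chromosome 7 at 152.12 Mb. Only 0.40 Mb of probed sequence follows it, and its window held 78 probes. Its levels were 0.040, -0.042, -0.28, 0.013, -0.0033, 0.023, -0.25 and -0.030 with the pattern removed. The values of tumors 3 and 7 were lower than the 6 others and close to each other, with standard errors over probes of 0.016 and 0.030, which are not a replicate error. The extent differed between them: in tumor 3 chromosome 7 was lost over 99.5% of its length at a mean of -0.30, while in tumor 7 its mean was -0.11 and 19.1% of its length was lost. The segment over Ccnd1 in tumor 7 was the last 0.844 Mb of the chromosome at -0.23 with the pattern removed, and the last 4.53 Mb at -0.23 with it kept. In that tumor chromosome 7 was cut into 86 segments with the pattern removed and 42 with it kept. No tumor had a gain of Ccnd1. The levels with the pattern kept were -0.010, -0.10, -0.34, -0.034, -0.050, -0.022, -0.26 and -0.080, with the same 2 tumors called lost.

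Rb1 (gene ID 19645), at 73.66 Mb of chromosome 14 with 65 probes, gave levels of -0.011, 0.060, -0.30, -0.26, 0.40, -0.40, 0.078 and -0.30 with the pattern removed. In order from the lowest, tumors 6, 3, 8 and 4 were lost, tumors 1, 2 and 7 lay between -0.011 and 0.078, and tumor 5 was gained. Tumor 6 was lower than the next tumor by a gap larger than the standard errors over probes (0.019 to 0.032), and tumors 3, 8 and 4 lay close together. These errors are not a replicate error. With the pattern kept the levels were -0.10, -0.030, -0.39, -0.35, 0.32, -0.49, 0.043 and -0.37, and the same 5 tumors were called. The spread between tumors was wide, with a standard deviation of 0.27 on both scales. A spread this large was seen in 4.54% of the 1 Mb windows with the pattern kept and in 4.86% with it removed. Trp53 was at the other end, and 97.9% and 93.8% of the windows varied at least as much.

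**Figure D2:**
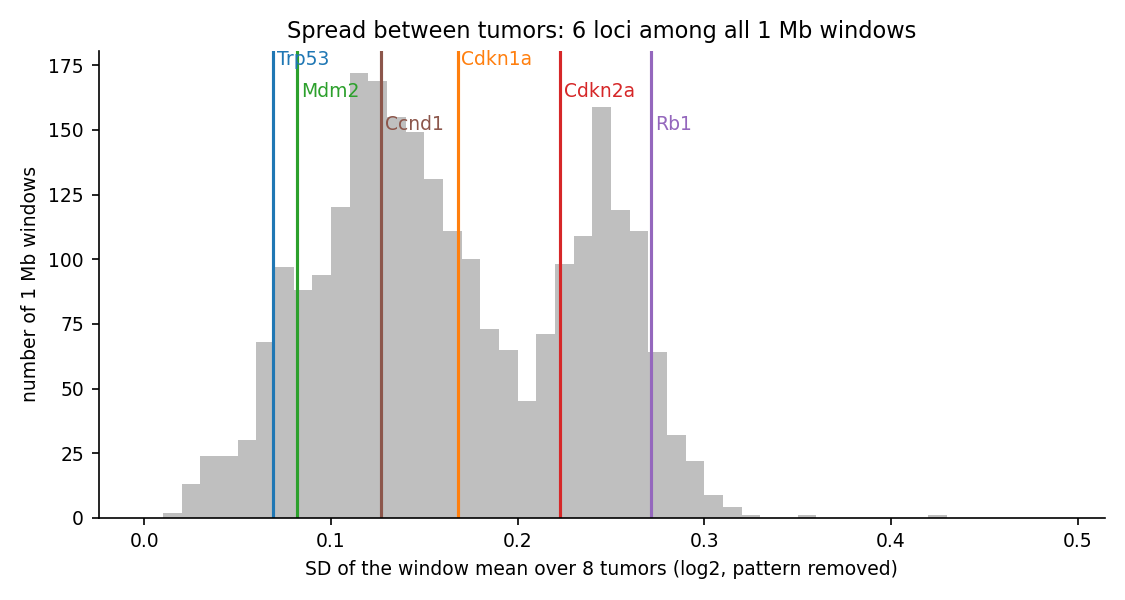
Standard deviation over the 8 tumors of the mean log2 ratio of each 1 Mb window, pattern removed (horizontal axis, log2 units), with the number of windows on the vertical axis. Coloured lines mark the 6 loci, from Trp53 at 0.069 to Rb1 at 0.27.

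The extent of the change around Rb1 differed between tumors. In tumors 5 and 6 the whole of chromosome 14 was changed (pattern removed), gained over 100% of its length at a mean of 0.39 in tumor 5 and lost over 100% at -0.48 in tumor 6. Tumor 8 had lost 95.2% of its length and tumor 4 100%, at means of -0.29 and -0.20, and in tumor 4 the called length was 62.2% with the pattern kept. Tumor 3 was different. Its loss began between the probes ending at 60768591 and starting at 60785903 of chromosome 14 on mm9, the same pair of probes on both scales, and ran on for 64.4 Mb to the end of the chromosome. With the pattern removed the 3819 probes before this boundary had a mean of -0.015 ± 0.0023 (SE over probes) in tumor 3, and the 4049 probes after it a mean of -0.30 ± 0.0024. The same means were 0.027 ± 0.011 and -0.34 ± 0.010 with the pattern kept. The step was -0.28 in tumor 3, and between 0.028 and 0.061 in the 7 other tumors (pattern removed). Rb1 thus lay in a partial loss that left the proximal part of the chromosome near 0.

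Within that loss, the segmentation of tumor 3 set apart 5 neighbouring probes at chr14:73580527-73616608 on mm9, 43.4 to 79.5 kb before the Rb1 position. This stretch of 36.1 kb was singled out after its values were seen. The 5 probes had a mean of -0.60 ± 0.12 (SE over probes; lowest -1.01, highest -0.32) in tumor 3 with the pattern removed, against -0.28 for the other probes of the window. In the 7 other tumors the same probes differed from the rest of the window by -0.13 to 0.099. Segments of under 10 probes that lie at least 0.2 below both neighbours were found 35 times in tumor 3, among 343 segments. They were found 23 to 69 times in the other tumors. The stretch was thus not the only one of its kind on its array, and whether it is more than noise was not tested. On the scale with the pattern kept it was not separated as a segment. The gene models of the build were not used here, so whether it lies inside Rb1 was not determined. The 11 probes within 50 kb of the position were high with the pattern kept, at 0.15 to 0.92 in tumors 1 to 7 and -0.13 in tumor 8, and tumor 7 had a segment of 0.029 Mb at 0.83 there. Once the pattern was removed they read -0.41 to 0.40.

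**Figure D3:**
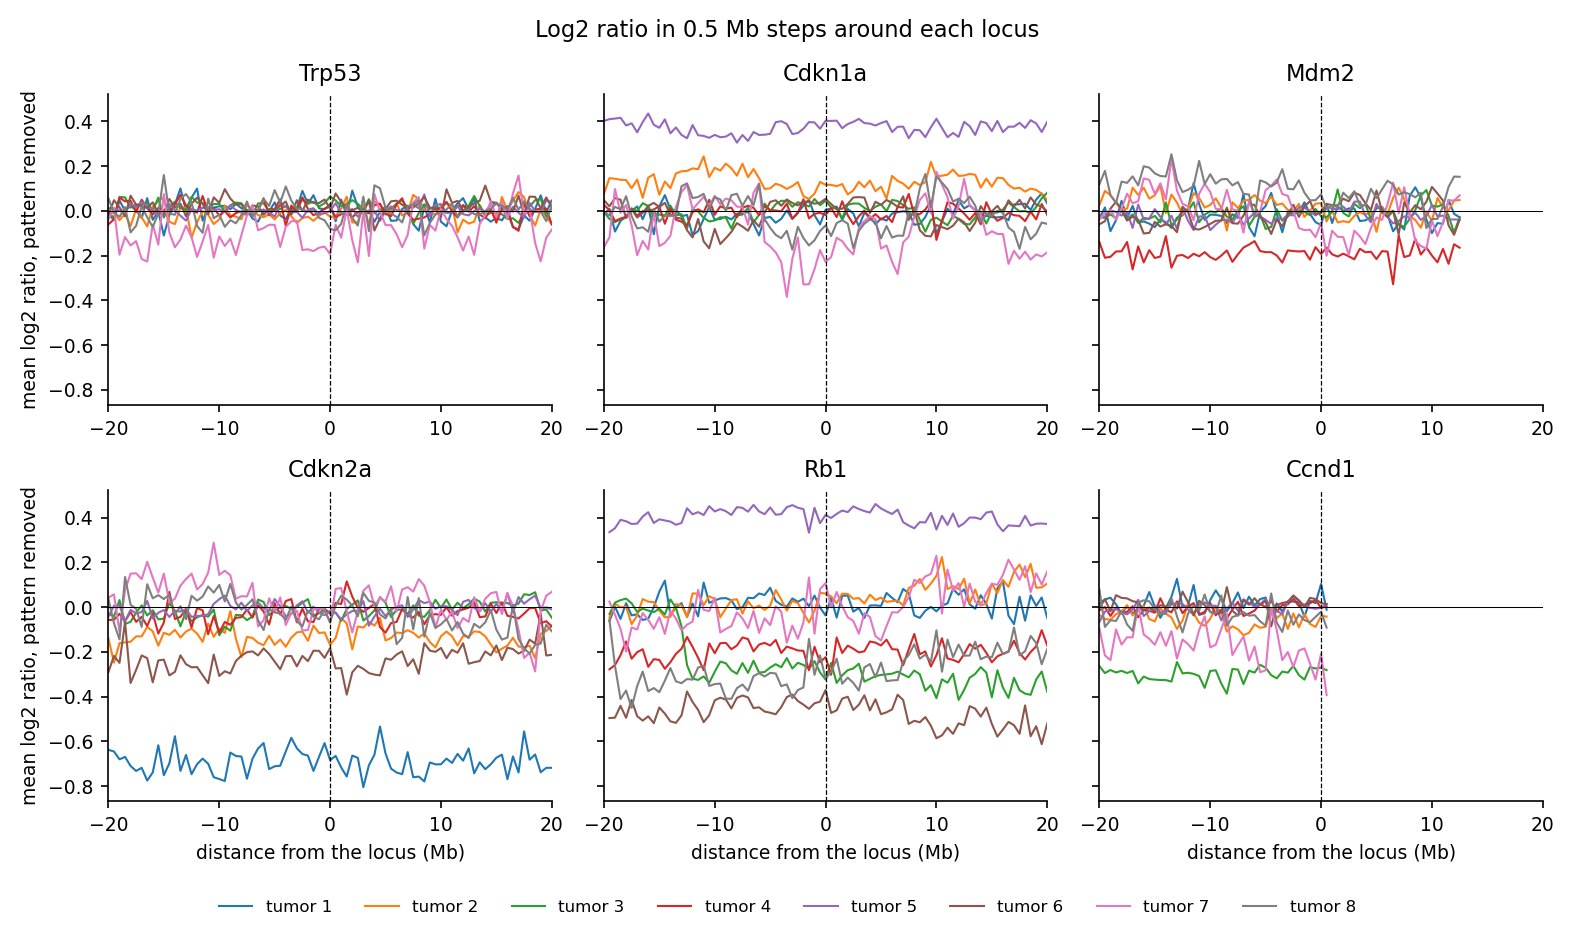
Mean log2 ratio with the pattern removed (vertical axis) in 0.5 Mb steps up to 20 Mb on either side of each locus (horizontal axis, distance in Mb), 1 line for each tumor. The lines at Cdkn2a, Mdm2, Cdkn1a and Ccnd1 are level across the locus in tumors 1, 4, 5 and 3, the tumor 3 line at Rb1 steps down about 13 Mb before the locus, and tumor 7 dips around Cdkn1a.

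Whether a gene moved with or apart from its chromosome was read from the window mean minus the median of all other probes of the chromosome. No pair of a locus and a tumor differed from its chromosome by 0.2 or more on either scale. With the pattern kept, 16.7% of all windows were higher than their chromosome by this size and 0.914% lower. With it removed 1.58% passed in either direction, so that few windows anywhere did. The differences ranged from -0.13 (Trp53 in tumor 7) to 0.15 (Cdkn2a in tumors 1 and 4) with the pattern kept. With the pattern removed they ranged from -0.16 (Ccnd1 in tumor 7) to 0.094 (Rb1 in tumor 7), and Rb1 in tumor 3 was at -0.14, where the chromosome median mixed both sides of the boundary. A shorter change was sought as 5 neighbouring probes with a mean at least 0.5 from the chromosome median, with the pattern removed. None of the 48 pairs held one, where 2.86% of all windows did. The nearest was Ccnd1 in tumor 7 at -0.496, followed by Rb1 in tumor 3 and Cdkn1a in tumor 7, both at -0.44. At this spacing, with probes a median of 8.7 to 12.7 kb apart and gaps of up to 66.3 kb, a deletion of a few kb within a gene was not detectable.

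**Figure D4:**
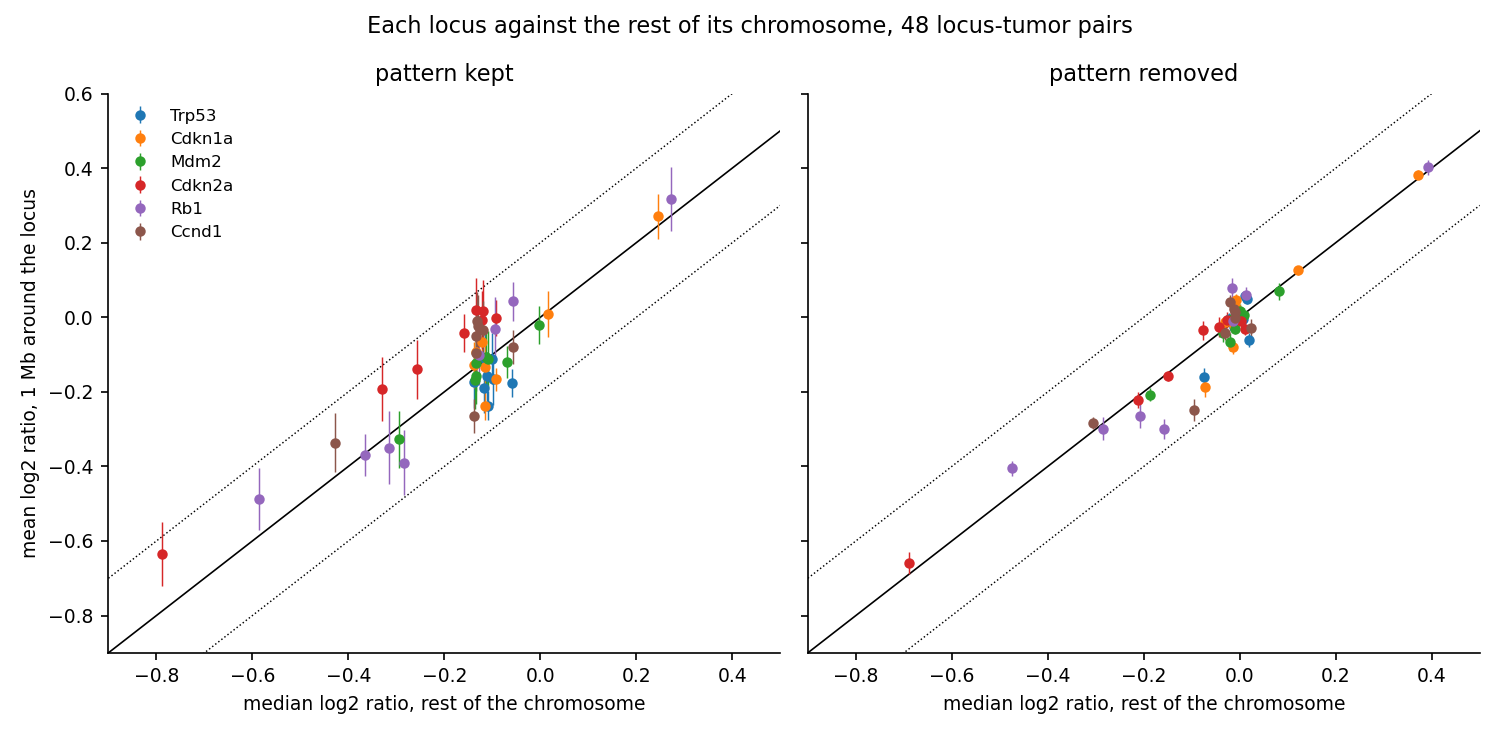
Mean log2 ratio of the 1 Mb around each locus (vertical axis) against the median of the rest of its chromosome (horizontal axis), 1 point for each of the 48 locus-tumor pairs, pattern kept (left) and removed (right). The solid line is equality, dotted lines are 0.2 above and below it, and bars are standard errors over probes; all 48 points lie between the dotted lines.

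Over the 8 tumors each level was tested against 0 with limma, together with all 2531 windows of 1 Mb. With the pattern kept Trp53 fell below 0 at a mean of -0.17 ± 0.041 (SD, n = 8; limma, adjusted p = 0.0148) and Mdm2 at -0.14 ± 0.087 (limma, adjusted p = 0.0339), each lower in 8 of 8 tumors. Of all windows 12.7% were called lower and 5.22% higher by the same test. The sign of both means turned with 0 at the density peak of single probes (0.22 for Trp53, 0.24 for Mdm2), and with 0 at the array median they were -0.023 and 0.00073. Removing the pattern, which was taken from these same arrays, also subtracts a shift of a window from its chromosome that most tumors share. It therefore cannot test such a shift. Both calls ended on that scale, where the mean of Trp53 was -0.018 ± 0.069 (limma, adjusted p = 0.798) and that of Mdm2 -0.033 ± 0.082 (limma, adjusted p = 0.629). They also ended without tumors 7 and 8, at -0.15 and -0.17 (limma, adjusted p = 0.0613 and 0.0662). The call of Trp53 ended without tumor 2, at -0.16 (limma, adjusted p = 0.0506). That of Mdm2 ended without tumor 1, 2 or 4, at -0.14, -0.15 and -0.12 (limma, adjusted p = 0.0573, 0.0781 and 0.0698). Fewer windows were called lower in these fits than the 321 with all 8 tumors. They numbered 4 without tumors 7 and 8, and 250, 66 and 58 without tumor 1, 2 or 4. A window of 1 Mb on each side ended both, at -0.092 for Trp53 and -0.12 for Mdm2 (limma, adjusted p = 0.0880 and 0.0648), and one of 0.25 Mb ended that of Mdm2, at -0.11 (limma, adjusted p = 0.0658). The means on the 2 slides were -0.16 and -0.17 for Trp53 and -0.19 and -0.094 for Mdm2. The 4 other loci did not pass: the means were -0.17 ± 0.27 for Rb1, -0.12 ± 0.22 for Cdkn2a, -0.11 ± 0.12 for Ccnd1 and -0.068 ± 0.15 for Cdkn1a (limma, adjusted p = 0.157, 0.212, 0.104 and 0.357). Rb1 passed when tumor 5, the gain, was left out, at a mean of -0.24 (limma, adjusted p = 0.0387). That fit called 356 of the 2531 windows lower. With the median of the probes in place of their mean all 4 passed, at -0.28 for Rb1, -0.27 for Cdkn2a, -0.18 for Ccnd1 and -0.19 for Cdkn1a (limma, adjusted p = 0.0137, 0.010, 0.00707 and 0.00656). The genome at large moved too, with 1408 of the 2531 windows called lower and 67 higher in that setting. Ccnd1 also passed with a window of 0.25 Mb on each side, at -0.21 (limma, adjusted p = 0.00779), where 1005 of 5003 windows were called lower. It passed as well by an exact sign-flip permutation test (adjusted p = 0.0384), where 424 of 2531 windows were called lower. No window and no locus passed with the pattern removed, where 349 of the 2531 windows had an unadjusted p under 0.05.

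The same test on the difference from the rest of the chromosome called Cdkn2a higher, at 0.13 ± 0.022 (SD, n = 8; limma, adjusted p = 6.3e-06), and Trp53 lower, at -0.060 ± 0.047 (limma, adjusted p = 0.00905). Cdkn2a was higher in 8 of 8 tumors and Trp53 lower in 7 of 8, with means on the 2 slides of 0.13 and 0.12 for Cdkn2a and -0.043 and -0.076 for Trp53. Here 72.2% of all windows were called higher and 4.19% lower. In this measure a window mean is set against a chromosome median. With the mean of the rest of the chromosome as the reference, a choice made after seeing the data, 697 windows were higher and 634 lower, and all 6 loci passed (limma, adjusted p from 5.5e-06 to 0.031), Cdkn2a higher at 0.036 and the 5 others lower, from -0.16 for Trp53 to -0.053 for Ccnd1. With the pattern removed neither was called, at 0.0045 ± 0.027 for Cdkn2a and -0.011 ± 0.049 for Trp53 (limma, adjusted p = 0.9997 for both). Again no window passed, with 0 windows at an unadjusted p under 0.05. The pattern was taken from these same arrays, so a difference shared by most tumors is subtracted with it. That outcome was thus largely fixed in advance and does not test either call. The call of Trp53 also ended, and its sign turned, with a window of 1 Mb on each side, at 0.014 (limma, adjusted p = 0.503). That of Cdkn2a did so with the median of the probes, at -0.022 (limma, adjusted p = 0.474). Differences for the 4 other loci were between -0.018 and 0.048 and did not pass (limma, adjusted p from 0.121 to 0.612). Ccnd1 passed without tumor 7, at 0.072 (limma, adjusted p = 0.00466), where 1923 of the 2531 windows were called higher.

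The tumors carried the changes in different combinations. With the pattern removed tumor 1 had lost Cdkn2a alone, tumor 8 Rb1 alone and tumor 7 Ccnd1 alone. Tumor 3 had lost Rb1 and Ccnd1 at like depth (-0.30 and -0.28), tumor 4 Rb1 and Mdm2 (-0.26 and -0.21), and tumor 6 Rb1 and Cdkn2a at unlike depth (-0.40 and -0.22). Tumor 5 had gained Rb1 and Cdkn1a (0.40 and 0.38), and tumor 2 had no call. Of all 1 Mb windows, the share past the same threshold downward was 17.6% in tumor 1, 30.5% in tumor 3 and 11.1% in tumor 4. It was 36.1% in tumor 6, 6.48% in tumor 7 and 15.6% in tumor 8, and 16.0% of windows passed upward in tumor 5. Whether any combination differs from these shares was not tested. By the mean absolute difference in level over the 8 tumors, the locus most like Rb1 was Cdkn1a, at 0.20, and the locus least like it Cdkn2a, at 0.29 (pattern removed). The chromosome other than its own most like Rb1 was X, at 0.14, and its own differed by 0.057. For Cdkn2a it was chromosome 13, at 0.057, with 0.022 for chromosome 4 itself.

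Another 40 genes of both pathways were listed, and all 40 were placed by chromosome only, so a call for them is a call of the whole chromosome (mean of at least 0.2 in size, pattern kept). Over 20 chromosomes and 8 tumors 5.00% of means were gained and 13.1% lost. Of 320 pairs of a listed gene and a tumor 8 were gained (2.50%) and 37 lost (11.6%), both below those shares, and genes on 1 chromosome share 1 value. On the p53 side 2 of 160 pairs were gained and 16 lost, and on the Rb side 6 and 21. Skp2, a component of the ubiquitin ligase that degrades the inhibitor p27, was the only listed gene called in 3 or more tumors. Its chromosome 15 was gained in tumors 3, 4, 5, 6 and 8, at 0.27, 0.31, 0.69, 0.40 and 0.28. Cdkn2b was lost with chromosome 4 in tumors 1 and 6. Trp53bp1, Ccng1, Apaf1, Fas, Ppm1d, Cdk2, Cdk4, Rbl1 and E2f1 lay on chromosomes with no call in any tumor. Several of these were just short of the threshold (pattern kept). Chromosome 10 (Apaf1, Cdk2 and Cdk4) was at -0.18 and chromosome 19 (Fas) at -0.17 in tumor 4. Chromosome 2 (Trp53bp1, Rbl1 and E2f1) was at -0.18 in tumor 6.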

How the data were processed

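DNA of 8 tumors was hybridized against 1 pool on 2-colour arrays of 174305 spots, 4 arrays on each of 2 slides. Per the submitters' processing notes and the file headers, images were read with Agilent Feature Extraction 10.7.3.1. Of the deposited columns, the processed signals are an intensity in each dye, already background-subtracted and dye-normalized by the authors. The deposited ratios are log10 values of red over green, and per the file headers the other columns used are quality marks. Probe positions are on mm9.

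Per array, log2 ratios were computed from the deposited intensities, 115 to 221 outlier spots were left out, spots of a probe were averaged, and 0 was set at the commonest autosomal segment level (0.023 to 0.25 above the array median). Between 97.0% and 99.9% of spots were well above background. Median spots exceeded their background 4.27 to 11.1 times in green and 4.17 to 6.56 times in red. The shared pattern is the median over arrays of log2 ratios minus chromosome medians, scaled to each array. Segments came from circular binary segmentation (1% false splits per chromosome on simulated noise, neighbours under 0.1 apart merged), tested on simulated data. Windows with at least 10 probes entered an intercept-only fit by limma 3.58.1 under R 4.3.3 (two-sided, Benjamini-Hochberg over all windows and loci, threshold 0.05). Python 3.11.15, numpy 2.4.6, pandas 2.3.3, scipy 1.17.1, numba 0.67.0 and matplotlib 3.10.9 were used.

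The 6 loci, the gene list and the named genes (all 6; listed genes on chromosomes called in at least 3 tumors; Cdkn2b; the nearest locus and chromosome) were chosen with earlier results of these data known. Alternatives changed the zero, pattern, background correction, dim probes, window, summary, reference and threshold, and left out tumors. Gene chromosomes and neighbours came from a RefSeq table of another build.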

Additional observations from a re-analysis of the deposited data

Results flagged for a closer look

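Cdkn2a in tumor 1 lay far below the 7 other tumors, at -0.63 with the pattern kept and -0.66 with it removed. The gap to the next tumor was 0.68 and 0.67 of the whole range. The rest of chromosome 4 had a median of -0.79 and -0.69 in the same tumor. The locus level is a mean, and the mean of chromosome 4 was -0.68 and -0.67. Chance alone takes about 1 in 20 groups past the critical value that the gaps were set against.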

How the results depend on the processing

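Over the alternatives, 264 values of the 12 locus means (6 levels and 6 differences from the chromosome) were set against the main ones. Of these 205 were marked unchanged, 14 lost a call, 18 gained one and 27 changed sign. In a tested setting, unchanged means the same direction and the same side of the threshold. The means of each slide alone had no test and were marked unchanged if within the SD over tumors of the main mean. For loci without a call this held also where the sign differed, as for the Cdkn1a difference on slide 1 (0.0057 against -0.011). The cause of the changes was not tested, except where the setting itself names fewer tumors or another zero. All adjusted p-values are from limma unless the exact test is named. No paired analysis was possible because the labels give 1 group of tumors.

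Leaving out each tumor in turn gave a mean level of -0.173 to -0.155 for Trp53, -0.159 to -0.116 for Mdm2, -0.241 to -0.126 for Rb1, -0.143 to -0.0496 for Cdkn2a, -0.126 to -0.0795 for Ccnd1 and -0.117 to -0.0443 for Cdkn1a. The difference from the chromosome was then -0.0685 to -0.0497 for Trp53, -0.0221 to -0.0134 for Mdm2, 0.0127 to 0.0420 for Rb1, 0.124 to 0.133 for Cdkn2a, 0.0369 to 0.0722 for Ccnd1 and -0.0209 to 0.00413 for Cdkn1a, positive only without tumor 7. Windows called higher in level numbered 23 to 117 and lower 58 to 356, and by difference 1737 to 1923 higher and 89 to 106 lower. The low ends for level came without tumor 4 (23 and 58), and tumors 2, 3, 6 and 8 also moved a count by over 1.5 times. Without tumors 7 and 8, Trp53 was at -0.152 and Mdm2 at -0.166 in level (both calls lost), 1 window was higher and 4 lower, and 6 pairs were lost. In difference Cdkn1a was then at 0.0171 and Ccnd1 at 0.0881 (call gained for Ccnd1), with 1976 windows higher and 113 lower.

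Zero at the array median gave levels of -0.0225 for Trp53, 0.0744 for Cdkn1a, 0.00073 for Mdm2, 0.0201 for Cdkn2a and 0.0312 for Ccnd1, none of them called, with 843 windows higher, 76 lower, 4 pairs gained and 4 lost. Zero at the density peak of single probes gave 0.220 for Trp53, 0.317 for Cdkn1a, 0.243 for Mdm2, 0.262 for Cdkn2a, 0.214 for Rb1 and 0.274 for Ccnd1, all called higher, with 2351 windows higher, 1 lower, 30 pairs gained and 0 lost. With the pattern removed the levels were -0.0180 for Trp53, 0.0348 for Cdkn1a and -0.0326 for Mdm2, the differences -0.0113 for Trp53, 0.0045 for Cdkn2a and -0.0091 for Ccnd1, none of them called, and limma called 0 windows in either direction on level (349 at an unadjusted p under 0.05) or on difference (0 at that p). A local difference shared by most tumors is subtracted with the pattern, so this setting does not test one.

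A window of 1 Mb on each side gave levels of -0.0919 for Trp53 and -0.115 for Mdm2, both calls lost, and differences of 0.0136 for Trp53, 0.0530 for Cdkn1a, 0.0076 for Mdm2, 0.0607 for Rb1 and 0.0781 for Ccnd1, with the call of Trp53 lost and those of Rb1 and Ccnd1 gained. A window of 0.25 Mb on each side gave levels of -0.105 for Mdm2 (call lost) and -0.214 for Ccnd1 (call gained), differences of 0.0164 for Cdkn1a, 0.0196 for Mdm2, 0.0718 for Rb1 and -0.0553 for Ccnd1 (calls gained for both Rb1 and Ccnd1), and 5 pairs higher than their chromosome. Windows of matching width were tested with each. With 0.25 Mb on each side, limma called 3269 of 5003 windows higher and 397 lower in difference, and 420 higher and 1005 lower in level. With 1 Mb on each side it called 1014 of 1286 windows higher and 24 lower in difference, and 28 higher and 57 lower in level. The probe median in place of the mean gave levels of -0.194 for Cdkn1a, -0.272 for Cdkn2a, -0.283 for Rb1 and -0.179 for Ccnd1, all calls gained, and differences of -0.137 for Cdkn1a, -0.114 for Mdm2, -0.0216 for Cdkn2a, -0.0887 for Rb1 and -0.0198 for Ccnd1, with calls gained for Cdkn1a, Mdm2 and Rb1 and lost for Cdkn2a. Its windows numbered 67 higher and 1408 lower in level, 699 higher and 597 lower in difference, with 1 pair gained, 27 lost and 1 lower than its chromosome.

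The mean of the rest of the chromosome as reference, added after seeing the data, gave differences of -0.109 for Cdkn1a, -0.118 for Mdm2, -0.0797 for Rb1 and -0.0531 for Ccnd1, all calls gained, with 697 windows higher, 634 lower and 1 pair lower than its chromosome. Flanks to 5 Mb gave 0.0327 for Cdkn1a (call gained), with 1937 windows higher and 127 lower. Normexp background correction on median signals gave -0.0501 for Cdkn1a, -0.0643 for Mdm2 (both calls gained) and -0.0113 for Ccnd1, with 284 windows lower. The exact sign-flip permutation test called Ccnd1 at its level of -0.112 (adjusted p = 0.0384), where the smallest p that 8 tumors allow is 0.0078. The slide as a random block gave 567 windows lower in level. At a threshold of 0.3, 1 pair was gained, and at 0.1, 29 were lost, 9 were higher and 5 lower than their chromosome. The share of all windows past these thresholds is not given here, so these counts are not a result about the loci. Signal over background was lowest in tumor 4 (green, 4.27 times) and tumor 7 (red, 4.17 times), and with 1 array per tumor no single call has a replicate check.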
